A study of Mus musculus with 6 samples.

Results

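The genes described here encode receptors of noncanonical Wnt signalling and membrane and cytoplasmic proteins of planar cell polarity. The 10 genes were chosen by symbol in the deposited count table, and all 10 were found among its 23478 rows: Ror1, Ror2, Ryk, Ptk7, Vangl1, Vangl2, Celsr1, Celsr2, Prickle1 and Prickle2. They were compared between muscle cells and epithelial cells that were sorted from the trachea of mouse embryos of day 13.5, with 3 libraries per population. Every embryo had the genotype Bmp4 f/f; gamma SMA eGFP and is titled a control, so both populations carry the floxed Bmp4 alleles and the eGFP reporter of gamma smooth muscle actin. The labels name no Cre and no treatment, and they do not say whether embryos were pooled or whether the numbered libraries came from separate embryos. The p-values therefore measure the spread between these libraries, which may be technical. Muscle was collected by GFP and epithelium by surface Epcam.

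In noncanonical Wnt signalling, ligands such as Wnt5a act through Ror receptors, Ryk and Ptk7 on the cytoskeleton and on Jun kinase, without stabilising beta-catenin. In planar cell polarity, Celsr cadherins join neighbouring cells, with Vangl and Prickle proteins on one side of the junction and Frizzled and Dishevelled proteins on the other, which orients cells within the plane of a tissue. In the mouse trachea, Wnt5a and Ror2 are known for the orientation and arrangement of smooth muscle cells, and Vangl and Celsr proteins for the alignment of cilia in airway epithelium.

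Library totals ran from 11847432 to 54848820 counts. Actg2, the gene behind the sorting reporter, had 403 to 2786 CPM (counts scaled to a common library total, with TMM factors) in muscle and 1.60 to 2.47 in epithelium, and Epcam had 0.65 to 2.20 CPM in muscle and 541 to 710 in epithelium. All 9 smooth muscle markers were higher in muscle and all 9 epithelial markers were higher in epithelium. Muscle replicate 2 had the lowest summed level of smooth muscle markers in its group, 4080 CPM against 16580 and 17450. Counts of olfactory and vomeronasal receptor genes, which belong to sensory neurons, were high in muscle replicate 2, epithelium replicate 2 and epithelium replicate 3 (627 to 1792 CPM by library total, against 6.47 to 36.5 in the other 3 libraries). Identifiers in the file header group both libraries numbered 2 apart from the other 4, and values within that split are given below.

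The members divided evenly in direction. Ror2, Prickle1 and Prickle2 were higher in muscle, Vangl1, Celsr1 and Celsr2 were higher in epithelium, and Ror1, Ryk, Ptk7 and Vangl2 did not pass the threshold (edgeR quasi-likelihood test over 19375 genes, adjusted p under 0.05). Thus 6 of 10 members were called. Of all tested genes, 10.7% were called, 6.58% as higher in muscle and 4.11% as higher in epithelium. Restricted to genes whose log2 CPM averaged 3.5 or more, a level that every member exceeded, the share was 18.4%. At an unadjusted p under 0.05 the same 6 members passed, against 21.7% of all tested genes. The median absolute log2 fold change was 2.05 over the members and 0.61 over all tested genes, and the signed medians were 0.14 and -0.10. The groups did not overlap for the same 6 members, against 26.9% of all tested genes (16.4% with muscle higher and 10.5% with epithelium higher). All 10 members passed the filter on low counts, and their counts ran from 84 to 10076 per library. In bulk samples like these, a larger share of cells with a transcript and more transcript per cell cannot be told apart.

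**Figure D1:**
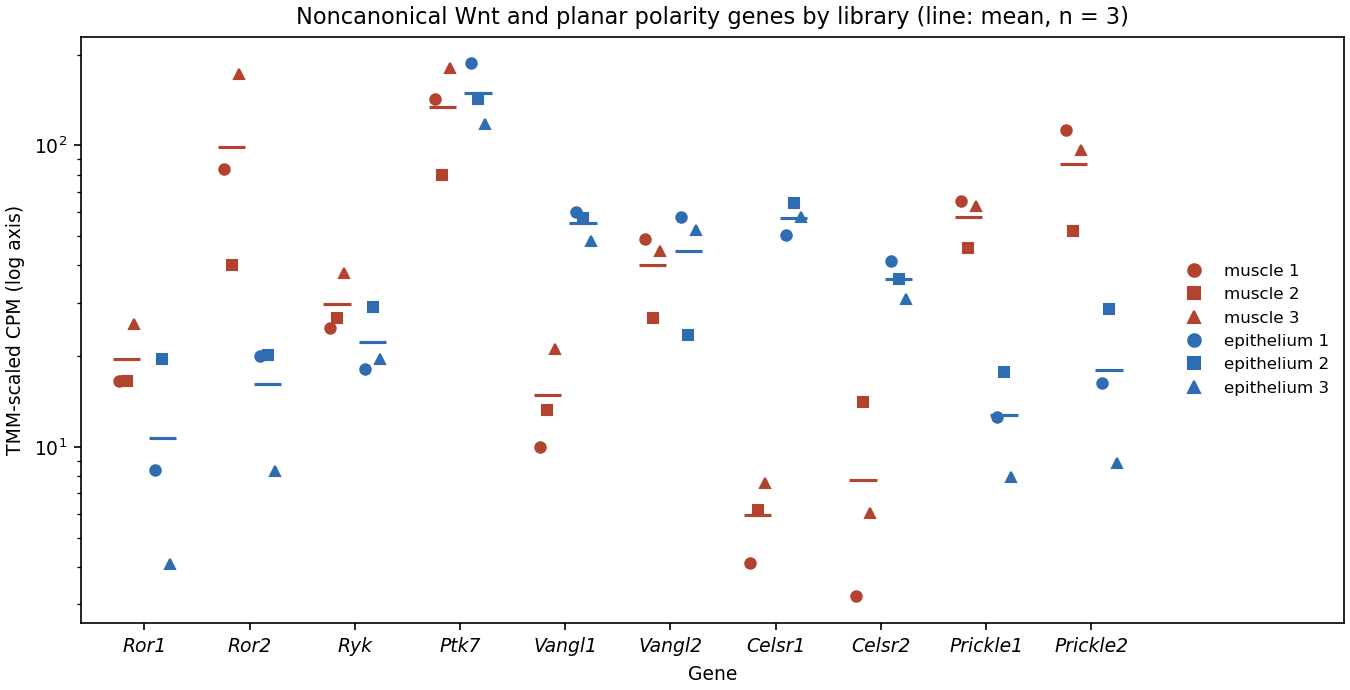
TMM-scaled CPM (log axis) of the 10 genes in each of the 6 libraries, with muscle in red, epithelium in blue, a marker shape for each replicate number and a line at the group mean (n = 3). The muscle libraries lie above all epithelial libraries for Ror2, Prickle1 and Prickle2 and below all of them for Vangl1, Celsr1 and Celsr2, while the groups overlap for the other 4 genes.

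Of the 4 receptors, only Ror2 was called. Ror2 (ENSMUSG00000021464.14, chr13:53109312-53286124, minus strand, GRCm38) encodes a receptor tyrosine kinase with a Frizzled-like domain that binds Wnt5a. It had 83.5, 40.2 and 172 CPM in muscle replicates 1 to 3 and 20.02, 20.1 and 8.30 CPM in epithelium replicates 1 to 3. Every muscle library had more Ror2 than every epithelial library, but the muscle libraries themselves differed widely, with the least in muscle replicate 2. The means were 98.7 ± 67.4 CPM (SD, n = 3) and 16.1 ± 6.79, and the log2 fold change of muscle over epithelium was 2.61 ± 0.55 (SE, adjusted p = 0.016, edgeR). The call was lost without epithelium replicate 3, the library with the least Ror2 (2.15 ± 0.54, adjusted p = 0.059, edgeR), and with a covariate for receptor-gene background counts (2.34 ± 0.64, adjusted p = 0.070). A block for replicate number also ended the Ror2 call (2.43 ± 0.72, adjusted p = 0.104, edgeR).

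Its paralog Ror1 (chr4:100095791-100444765, plus strand), another Wnt5a receptor, was measured at a lower count. Ror1 had 16.6, 16.5 and 25.6 CPM in muscle and 8.35, 19.6 and 4.09 CPM in epithelium. Epithelium replicate 2 lay above muscle replicates 1 and 2, so the groups overlapped. The difference did not pass (log2 fold change 0.88 ± 0.53, edgeR adjusted p = 0.44), and its 95% interval from -0.32 to 2.08 was wide. Ryk (chr9:102834917-102908305, plus strand), an atypical receptor kinase with a Wnt-binding domain, had 24.7, 26.7 and 37.7 CPM in muscle and 18.1, 29.2 and 19.6 CPM in epithelium. Again epithelium replicate 2 was inside the muscle range, and the log2 fold change of 0.42 ± 0.29 (95% interval -0.23 to 1.07) did not pass (adjusted p = 0.54, edgeR).

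Ptk7 (chr17:46564471-46629504, minus strand), a receptor with an inactive kinase domain that takes part in planar polarity and in both branches of Wnt signalling, had the most counts of the 10 genes. It had 143, 80.0 and 181 CPM in muscle and 187, 142 and 118 CPM in epithelium. The ranges overlapped, though muscle replicate 2 lay below every epithelial library and epithelium replicate 1 above every muscle library. The estimated log2 fold change was -0.15 ± 0.33 (edgeR adjusted p = 0.93), and its 95% interval of -0.90 to 0.60 lies within a 2-fold change in either direction. Its sign turned positive without muscle replicate 2 (0.13) or epithelium replicate 1 (0.073).

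Of the core membrane proteins, Celsr1 differed most. Celsr1 (ENSMUSG00000016028.10, chr15:85898929-86033777, minus strand) encodes an atypical cadherin that bridges neighbouring cells in the planar polarity complex. It had 4.11, 6.19 and 7.58 CPM in muscle and 50.5, 64.5 and 58.0 CPM in epithelium. The 3 libraries of each population lay close together and far from those of the other. The means were 5.96 ± 1.75 CPM (SD, n = 3) and 57.7 ± 6.98, so that Celsr1 was 9.65-fold higher in epithelium (log2 fold change -3.27 ± 0.30, edgeR adjusted p = 0.00043).

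Celsr2 (ENSMUSG00000068740.13, chr3:108390851-108415552, minus strand), a second cadherin of the family, was also higher in epithelium. It had 3.19, 14.1 and 6.04 CPM in muscle and 41.4, 36.2 and 30.9 CPM in epithelium. The epithelial libraries were close to one another, and muscle replicate 2 had the most Celsr2 of the muscle libraries. The log2 fold change was -2.22 ± 0.49 (adjusted p = 0.020, edgeR). The call was lost without muscle replicate 3 (adjusted p = 0.060, edgeR) and when libraries were scaled by their totals only (adjusted p = 0.051). Muscle held 10.3% of the epithelial level of Celsr1 and 21.5% of that of Celsr2. The epithelial markers in muscle stood at a median of 0.51% of their epithelial level. Muscle replicate 2 also had the most receptor-gene background counts of the muscle libraries (871 CPM by library total). The origin of the Celsr1 and Celsr2 counts in muscle was not tested.

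Of the paralogous membrane proteins Vangl1 and Vangl2, which recruit Prickle, Vangl1 was higher in epithelium and Vangl2 did not pass. Vangl1 (ENSMUSG00000027860.15, chr3:102153583-102204693, minus strand) had 9.997, 13.2 and 21.2 CPM in muscle and 60.3, 57.5 and 48.2 CPM in epithelium. All epithelial libraries were above all muscle libraries, and the log2 fold change was -1.90 ± 0.31 (adjusted p = 0.0052, edgeR). Vangl2 (ENSMUSG00000026556.15, chr1:172000960-172028444, minus strand), the member best known from looptail mice with an open neural tube, had 48.9, 26.7 and 44.8 CPM in muscle and 57.9, 23.5 and 52.3 CPM in epithelium. In each population replicate 2 had the least Vangl2. Of the remaining libraries, both epithelial ones lay somewhat above both muscle ones. The Vangl2 difference (log2 fold change -0.15 ± 0.37, edgeR adjusted p = 0.93) had a 95% interval from -0.996 to 0.69, and its sign turned positive without muscle replicate 2 (0.077) or epithelium replicate 1 (0.097).

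Prickle1 and Prickle2, cytoplasmic partners of Vangl, were higher in muscle, opposite to Vangl1 and the Celsr genes. Prickle1 (ENSMUSG00000036158.12, chr15:93499114-93595891, minus strand) had 65.6, 45.5 and 63.2 CPM in muscle and 12.5, 17.7 and 7.92 CPM in epithelium. The lowest muscle library had more than any epithelial library, and the log2 fold change was 2.20 ± 0.33 (adjusted p = 0.0036, edgeR). Prickle2 (ENSMUSG00000030020.13, chr6:92370908-92706155, minus strand) had 112, 51.9 and 96.7 CPM in muscle and 16.3, 28.7 and 8.83 CPM in epithelium. Muscle replicate 2 was again the lowest of its group and epithelium replicate 2 the highest of its own, and the log2 fold change was 2.28 ± 0.46 (adjusted p = 0.013, edgeR). The Prickle2 call was lost with a block for replicate number (2.39 ± 0.57, adjusted p = 0.062, edgeR). Vangl1, Celsr1 and Prickle1 kept their call in each of the 6 fits that left out 1 library, with a highest adjusted p of 0.016, 0.0019 and 0.013 (edgeR).

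**Figure D2:**
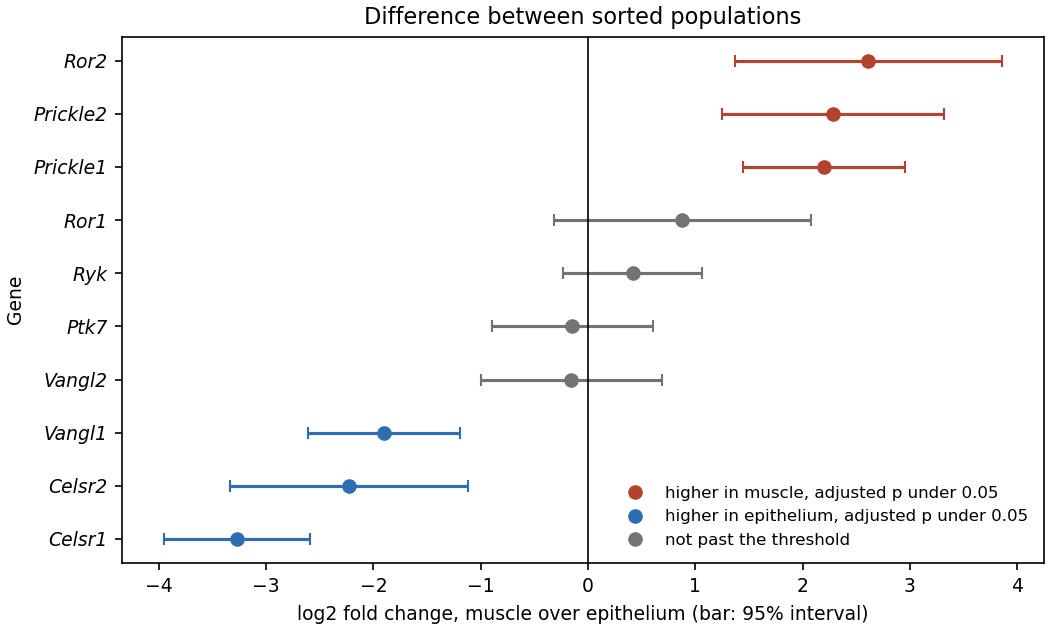
Log2 fold change of muscle over epithelium (horizontal axis) for the 10 genes, with 95% intervals from the edgeR fit. The intervals of Ror2, Prickle1 and Prickle2 lie above 0, those of Vangl1, Celsr1 and Celsr2 below 0, and those of Ror1, Ryk, Ptk7 and Vangl2 include 0.

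The split by header identifier was followed for the same genes. Among the 4 libraries numbered 1 and 3 (2 per group), the log2 fold changes were 3.10 ± 0.54 for Ror2 (adjusted p = 0.016, edgeR), 2.58 ± 0.29 for Prickle1 (0.0035) and 2.98 ± 0.33 for Prickle2 (0.0035). In the same libraries they were -3.28 ± 0.37 for Celsr1 (adjusted p = 0.0035, edgeR), -3.03 ± 0.41 for Celsr2 (0.0067) and -1.87 ± 0.40 for Vangl1 (0.029), so all 6 calls held there. The libraries numbered 2, 1 per group, allow no test. Their log2 CPM ratios had the same sign for these 6 genes. They were 1.00 for Ror2, 1.36 for Prickle1, 0.85 for Prickle2 and -1.36 for Celsr2, each nearer 0 than in the other 4 libraries, and -3.38 for Celsr1 and -2.12 for Vangl1. Ror1 reached 1.68 ± 0.47 in the 4 libraries without passing (adjusted p = 0.065, edgeR), while its ratio in the libraries numbered 2 was -0.24.

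Each of 4 paralog pairs was then compared as a ratio of counts within a library, a quantity that needs no scaling between libraries. Per kilobase of exon, the ratio of Ror2 to Ror1 was 6.84, 3.30 and 9.16 in muscle and 3.26, 1.395 and 2.75 in epithelium. The muscle ratios were all above the epithelial ones, though by little between muscle replicate 2 and epithelium replicate 1. On the log2 scale of counts the ratio averaged 2.12 ± 0.76 (SD, n = 3) in muscle against 0.77 ± 0.65, a difference of 1.35 (exact permutation test, two-sided, p = 0.10, adjusted over 4 pairs 0.20).

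The estimate was larger for the Vangl genes. Per kilobase of exon, the ratio of Vangl2 to Vangl1 was 5.002, 2.06 and 2.17 in muscle and 0.98, 0.42 and 1.11 in epithelium. Each muscle library thus had more Vangl2 than Vangl1 per length, and the epithelial libraries had about as much or less. The difference in mean log2 ratio was 1.87 (1.46 ± 0.72 against -0.41 ± 0.77, SD, n = 3, exact permutation test, two-sided, p = 0.10, adjusted 0.20). With 3 libraries per group 0.10 is the smallest p that this test can give, so neither ratio could pass 0.05.

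For Celsr2 over Celsr1 the log2 ratios were -0.36, 1.18 and -0.33 in muscle and -0.29, -0.83 and -0.91 in epithelium. These overlapped, and the difference of 0.84 rested on muscle replicate 2 (exact permutation test, p = 0.30, adjusted 0.40). Without that library it was 0.33. Prickle2 over Prickle1 gave 0.78, 0.19 and 0.61 in muscle and 0.38, 0.70 and 0.16 in epithelium, a difference of 0.11 that was smaller than the spread within either group (exact permutation test, p = 0.70, adjusted 0.70).

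**Figure D3:**
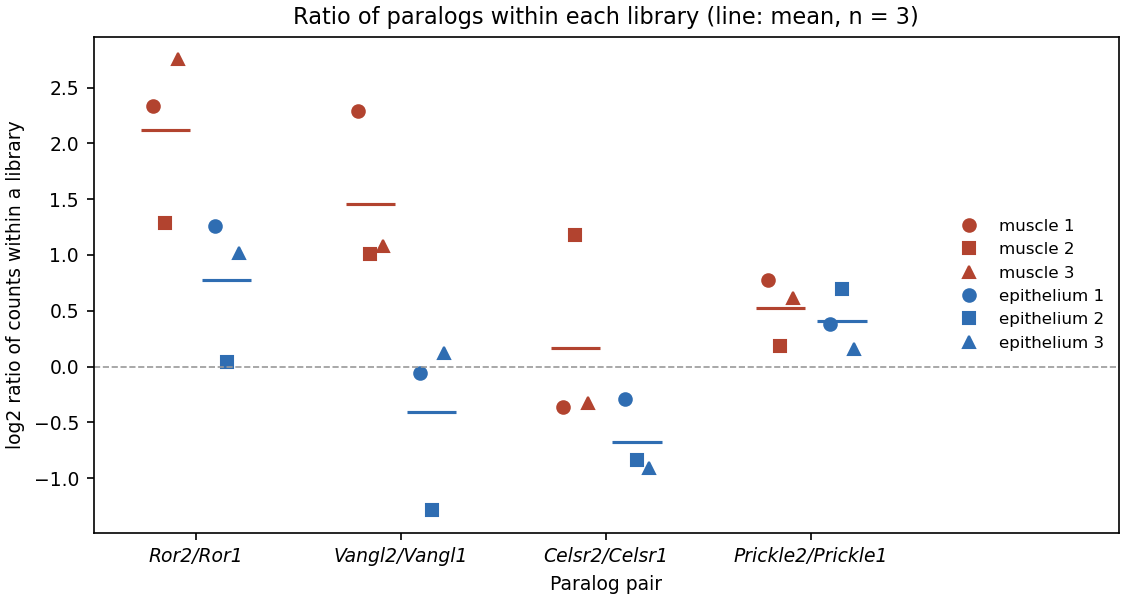
Log2 ratio of the counts of 2 paralogs within each library (vertical axis) for 4 pairs, with muscle in red, epithelium in blue and a line at the group mean (n = 3). The groups are apart for Ror2/Ror1 and Vangl2/Vangl1 and overlap for Celsr2/Celsr1 and Prickle2/Prickle1.

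To compare levels between genes, CPM was divided by the length of each gene's annotated exons. In muscle, Ptk7 (25.0 ± 9.47 CPM per kilobase, SD, n = 3) and Ror2 (23.3 ± 15.9) stood highest, followed by Prickle1 (13.4 ± 2.52), Prickle2 (10.1 ± 3.64), Ryk (6.55 ± 1.54), Vangl2 (5.74 ± 1.69) and Ror1 (3.39 ± 0.90). Vangl1 (2.07 ± 0.80), Celsr2 (0.67 ± 0.49) and Celsr1 (0.54 ± 0.16) were the lowest. The libraries' ranges overlapped in 8 of the 9 neighbouring pairs, the exception being Vangl1 over Celsr2. In epithelium, Ptk7 (27.7 ± 6.53 CPM per kilobase) was above all other members in every library, and Vangl1 (7.73 ± 0.89), Vangl2 (6.38 ± 2.64), Celsr1 (5.24 ± 0.63) and Ryk (4.92 ± 1.33) followed. Ror2 (3.81 ± 1.60), Celsr2 (3.14 ± 0.46), Prickle1 (2.93 ± 1.13), Prickle2 (2.08 ± 1.17) and Ror1 (1.85 ± 1.39) came last, and only the step from Ptk7 to Vangl1 was free of overlap between neighbours. Vangl1 thus ranked 8 in muscle and 2 in epithelium, and Ror2 ranked 2 in muscle and 6 in epithelium.

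The stretches just before the transcription start are shown for 4 genes that moved, Ror2, Prickle1 and Prickle2 toward muscle and Celsr2 toward epithelium, so that they can be read side by side. Each is the 250 bases before a RefSeq start (GRCm38.p6), 5′ to 3′ on the gene's own strand, at chr13:53286125-53286374 for Ror2, chr15:93595903-93596152 for Prickle1, chr6:92706185-92706434 for Prickle2 and chr3:108415580-108415829 for Celsr2, all on the minus strand. Capitals mark the E-box CAGGTG and the GC box GGGCGG on either strand (CACCTG and CCGCCC in reverse).
Ror2: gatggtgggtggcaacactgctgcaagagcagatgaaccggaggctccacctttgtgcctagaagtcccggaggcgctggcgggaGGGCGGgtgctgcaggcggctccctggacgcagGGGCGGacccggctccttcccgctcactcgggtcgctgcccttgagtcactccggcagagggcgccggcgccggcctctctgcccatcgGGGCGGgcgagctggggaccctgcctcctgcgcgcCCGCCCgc
Prickle1: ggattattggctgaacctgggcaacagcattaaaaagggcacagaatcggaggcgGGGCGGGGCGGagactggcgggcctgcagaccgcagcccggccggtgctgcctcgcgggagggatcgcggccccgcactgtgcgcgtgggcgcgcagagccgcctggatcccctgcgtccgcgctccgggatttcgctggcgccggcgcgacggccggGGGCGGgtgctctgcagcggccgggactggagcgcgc
Prickle2: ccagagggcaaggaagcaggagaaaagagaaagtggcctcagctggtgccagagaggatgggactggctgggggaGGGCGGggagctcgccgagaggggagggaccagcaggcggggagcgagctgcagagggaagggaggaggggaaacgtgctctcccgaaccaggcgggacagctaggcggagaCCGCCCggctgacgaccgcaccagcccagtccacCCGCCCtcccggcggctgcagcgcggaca
Celsr2: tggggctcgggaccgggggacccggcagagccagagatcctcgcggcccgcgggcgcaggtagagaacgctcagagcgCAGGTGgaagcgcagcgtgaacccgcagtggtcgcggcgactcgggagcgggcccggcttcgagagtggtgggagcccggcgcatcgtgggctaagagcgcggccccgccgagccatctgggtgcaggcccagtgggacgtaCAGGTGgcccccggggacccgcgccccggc
The Celsr2 stretch holds 2 E-boxes, the nearer one beginning 30 bases before the start, and no GC box. The Ror2 stretch holds 4 GC boxes, and those of Prickle1 and Prickle2 hold 3 each, overlapping in part in Prickle1, with no E-box in any of the 3. Of 32851 stretches of the same length in the table, 17.2% hold this E-box and 32.7% hold this GC box. The letters GGAATG (bound by Tead factors, in 12.6% of all stretches), CTTTGA (Tcf and Lef factors, 13.8%) and TATAAA (12.4%), and their reverse complements, occur in none of the 4. Prickle1 and Prickle2 have further annotated starts, whose stretches hold up to 2 GC boxes, 1 E-box in the case of Prickle1, and 1 CTTTGA (either strand) at 1 of the Prickle2 starts. Among the uncalled members, the Ror1 stretch holds 1 GC box and 1 CTTTGA, that of Ptk7 holds 1 GC box and 1 GGAATG, and that of Ryk holds 2 GC boxes and 1 TATAAA. The Vangl2 stretch holds 2 GC boxes and 1 E-box, and all of its 250 bases lie in exons annotated by GENCODE. Of the 10 members, 8 had an entry in the table, and Vangl1 and Celsr1 did not.

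The other genes of the pathway were taken from a list of 69, of which 67 were in the table and tested. Of these, 6 were higher in muscle and 5 in epithelium, 16.4% of the list. That share is near the background, which was 10.7% of all tested genes and 18.4% of those whose log2 CPM averaged 3.5 or more. The median log2 fold change was 0.39 over the list and -0.10 over all tested genes. Ligands, receptors, Fat and Dachsous cadherins and modulators held 8 of the 11 called genes, and these 8 are described below. None was called among 7 other core genes, 6 planar effectors and 13 genes of the calcium branch. The count higher in muscle was 12 without muscle replicate 2 and 2 without muscle replicate 3 or without epithelium replicate 3. The count higher in epithelium was 2 without epithelium replicate 3, and 3 when any other library but muscle replicate 2 was left out.

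Of the ligands, Wnt5a, the best-known partner of the Ror receptors, had 95.6, 53.6 and 113.9 CPM in muscle and 51.9, 56.3 and 37.1 CPM in epithelium. Only muscle replicate 2 fell inside the epithelial range, and the log2 fold change of 0.86 ± 0.32 did not pass (adjusted p = 0.14, edgeR), although it did without that library (1.12, adjusted p = 0.021). Wnt11 had 39.6, 32.9 and 45.0 CPM in muscle and 33.0, 22.5 and 11.2 CPM in epithelium (0.81 ± 0.37, adjusted p = 0.25, edgeR). The means of both are above the epithelial ones, but neither passed. Wnt5b had 11.1, 15.4 and 15.5 CPM in muscle and 10.6, 7.62 and 2.74 CPM in epithelium (1.00 ± 0.50, adjusted p = 0.31, edgeR). Wnt4 was the ligand higher in epithelium (-3.19 ± 0.73, adjusted p = 0.024, edgeR), a call lost without any of muscle replicate 3 and epithelium replicates 1 to 3 (adjusted p up to 0.10), with library totals as the scaling (0.056) and with the background covariate (0.062).

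Among the receptors and co-receptors, Fzd6, a Frizzled of the planar polarity complex, and Sdc4, a syndecan that modulates noncanonical Wnt signals, were higher in epithelium. Fzd6 had 2.66, 8.49 and 5.38 CPM in muscle and 51.4, 41.5 and 38.0 CPM in epithelium (-2.99 ± 0.41, adjusted p = 0.0023, edgeR). Sdc4 had 36.1, 48.9 and 37.9 CPM in muscle and 173, 115 and 166 CPM in epithelium (-1.89 ± 0.26, adjusted p = 0.0023, edgeR). For both genes the populations were far apart in every library. The glypican gene Gpc4 was higher in muscle (1.05 ± 0.22, adjusted p = 0.017, edgeR), a call lost without muscle replicate 3, epithelium replicate 2 or epithelium replicate 3 (adjusted p up to 0.14) and when libraries were scaled by their totals only (0.055).

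The large cadherins of the Fat and Dachsous system, which orient cells through a parallel polarity pathway, included 2 genes higher in muscle of 6 tested. Fat4 had 170.2, 167 and 227 CPM in muscle and 10.9, 51.7 and 17.6 CPM in epithelium (2.82 ± 0.54 on the log2 scale, edgeR adjusted p = 0.010). Its ligand gene Dchs1 had 149.99, 107.8 and 224 CPM in muscle and 72.8, 66.2 and 27.5 CPM in epithelium (1.53 ± 0.41, adjusted p = 0.046, edgeR). The Dchs1 call was lost on leaving out muscle replicates 1 or 3 or epithelium replicates 2 or 3 (adjusted p up to 0.15). It was also lost with the header identifier as a term (0.066), in the 4 libraries numbered 1 and 3 (0.053), and when scaled by DESeq2 size factors (0.072) or library totals (0.083). Fat4 kept its call without each library in turn (adjusted p up to 0.0497).

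Of 9 modulators, Dact3, of a family that binds Dishevelled, and Kif26b, a kinesin known as a target of Wnt5a and Ror signalling, were higher in muscle. Dact3 had 12.8, 13.1 and 27.1 CPM in muscle and 2.10, 4.95 and 3.23 CPM in epithelium (2.37 ± 0.49, edgeR adjusted p = 0.016). Kif26b had 33.8, 18.6 and 42.2 CPM in muscle and 11.5, 16.04 and 7.59 CPM in epithelium (1.43 ± 0.38, edgeR adjusted p = 0.046). Muscle replicate 2 came near the epithelial range for Kif26b. Dact3 lost its call without muscle replicate 3 or epithelium replicate 3 (adjusted p up to 0.17, edgeR), and Kif26b lost it without muscle replicates 1 or 3 or epithelium replicates 1 or 3 (up to 0.19). Scaling by library totals ended both calls (0.057 for Dact3 and 0.124 for Kif26b). That of Kif26b was also lost with DESeq2 size factors (0.078), the header identifier as a term (0.069) and a stricter filter (0.053). Fzd6 and Sdc4 kept their calls without each library in turn.

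Remaining paralogs of the members are given by value, and were chosen after their values were seen. Prickle3 had 21.2, 15.6 and 24.1 CPM in muscle and 25.8, 28.7 and 27.3 CPM in epithelium, so the groups did not overlap, but the difference did not pass (-0.42 ± 0.25 on the log2 scale, edgeR adjusted p = 0.42). Celsr3 had at most 11.96 CPM in any library (-0.97 ± 1.16, adjusted p = 0.83, edgeR), and was highest in epithelium replicate 2, muscle replicate 2 and epithelium replicate 3, the libraries with the most receptor-gene background counts.

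**Figure D4:**
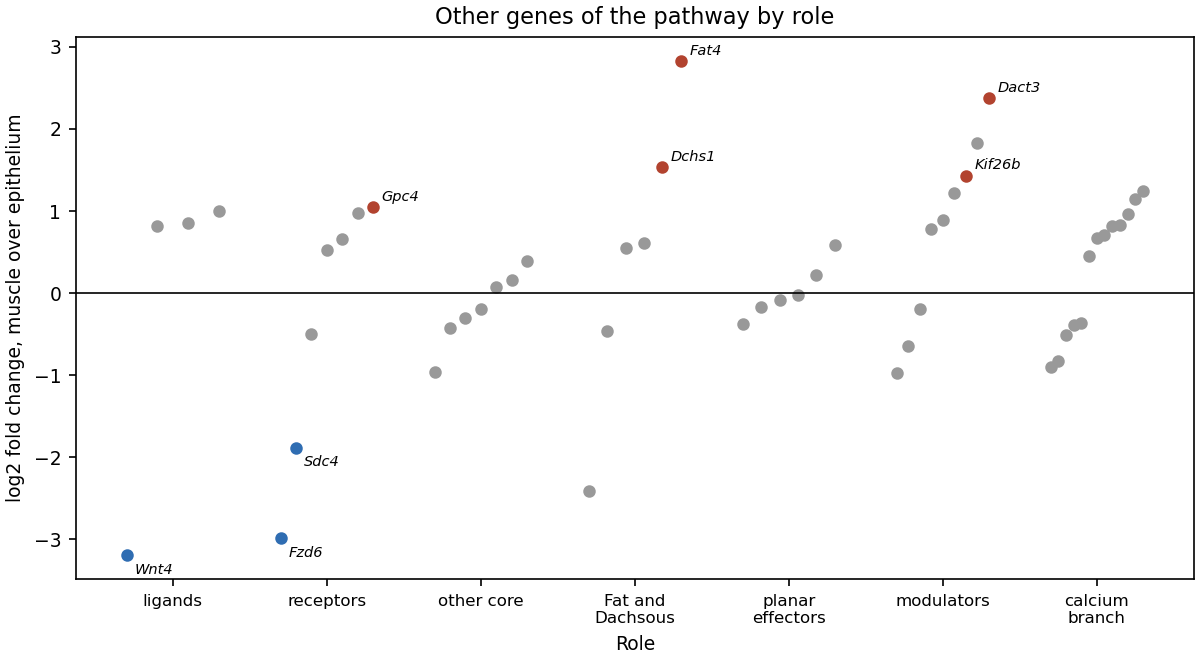
Log2 fold change of muscle over epithelium (vertical axis) for tested genes of the pathway in 7 roles, sorted within each role. Colored and named points passed an adjusted p of 0.05, with red higher in muscle and blue higher in epithelium, and gray points did not. The named points lie among ligands, receptors, Fat and Dachsous cadherins and modulators, and all points of the other 3 roles are gray.

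Some markers of other cell types also differed between the populations. Of 8 tested cartilage markers 3 were higher in muscle, with a summed level of 879 to 1458 CPM in muscle and 334 to 602 in epithelium. Of 8 fibroblast markers 2 were higher in muscle, with 646 to 1200 CPM in muscle and 77.4 to 390 in epithelium. No marker of either list was at or under 3 counts in all libraries of a population. Epithelium replicate 2 had the most Ror1, Ryk, Prickle1 and Prickle2 of the epithelial libraries, and also the most Celsr1, a gene higher in epithelium. It also had the most fibroblast marker counts (390 CPM against 77.4 and 79.8). The same library also led the epithelial libraries in cartilage, neural and glial, endothelial, immune and erythroid marker levels, and in receptor-gene background counts. Its Ror2 level (20.1 CPM) was nearly that of epithelium replicate 1 (20.02), which had 77.4 CPM of the fibroblast markers. Neural and glial markers summed to 186 to 657 CPM in muscle and 36.5 to 110.1 in epithelium, with 1 of 7 higher in muscle. Endothelial, immune and erythroid markers summed to at most 65.2, 40.0 and 36.5 CPM in any library, with none called. Of the 7 erythroid markers only 3 were tested, and Hbb-y made up most of that list's sum. The other 4 (Hba-a1, Hba-a2, Hbb-bt and Hbb-bs) had 0 counts in every library, and whether they were quantified is not known. Of 5 mesothelial markers only Krt19, a keratin that other epithelia also express, was higher in epithelium, and it made up most of the list's summed level there (154 to 391 CPM of 157 to 407, against 3.54 to 18.6 for the list in muscle). The other 4 (Wt1, Msln, Upk3b and Lrrn4) had at most 9.44 CPM in any library, with none called. Of 5 oesophageal markers, some of which tracheal epithelium also expresses, 3 were higher in epithelium (125 to 240 CPM against 1.90 to 12.8). The part of these cells in the differences of the members was not tested.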

How the data were processed

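RNA was measured in 6 libraries, 3 of sorted muscle and 3 of sorted epithelium. Per the labels' protocols, TrypLE-dissociated tracheal cells were stained for Epcam and sorted, RNA was extracted with Trizol, and libraries were made with SMART-Seq v4 and Nextera XT, so reads have neither strand nor molecular identifiers. The deposited values are whole-number counts, 1 row per gene symbol. The submitters' processing notes name mm10, Trim Galore, Bowtie2, Cufflinks and DESeq, without roles. The program behind the counts, its version and the annotation are not given in the sources used here. Of counts from 1 to 19, 73.8% to 79.6% per library were even, against 49.4% to 50.6% of counts of 100 or more; the cause was not tested, and low counts may not each be 1 independent fragment. Precision covers counting error and the spread of 3 libraries only.

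They were analysed without change in R 4.3.3 with edgeR 4.0.16: filterByExpr by group, TMM scaling and a robust two-sided quasi-likelihood test with no covariate, fitted to 19375 genes and adjusted by Benjamini-Hochberg, with a threshold of 0.05. Standard errors were derived from the test statistic and 95% intervals from its degrees of freedom. The script was tested on simulated data. Ratios of paralogs used counts plus 0.5. Exon lengths and gene positions come from GENCODE M21 (GRCm38, the build of mm10), and promoter sequences from RefSeq. Exons of other genes overlapped those of 1 member, Vangl1, by 8 bases.

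The members and lists were chosen with earlier results of these data known. Named genes were all 10 members, 4 ligands and, per other role, up to 3 called genes in each direction whose log2 CPM averaged 2 or more and whose groups did not overlap, except that 1 role, which holds 3 called genes counted in the totals of the pathway list, is not reported here. Alternatives were another scaling (DESeq2 1.42.0 size factors, library totals), no or a stricter filter, the DESeq2 Wald test, limma-voom (limma 3.58.1), a replicate block, the header identifier as a term or as a subset, a covariate for background counts, a threshold of 0.01, leaving out each library, and 5 counts added in the ratios.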

Additional observations from a re-analysis of the deposited data

How the results depend on the processing

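The 6 called members kept their direction in all 17 alternatives, and Vangl1, Celsr1 and Prickle1 also kept an adjusted p under 0.05 in all of them. The number of members higher in muscle was 1 at a threshold of 0.01, and ranged from 2 to 3 when a library was left out. Whether the replicate numbers pair the libraries was not settled. Deviations of same-numbered libraries from their group means correlated at 0.54, 0.63 and -0.34 across 19375 genes for numbers 1, 2 and 3. That check cannot decide it, as the libraries numbered 2 also share a header identifier apart from the others. With the replicate block, the number of members higher in muscle was 1, as Ror2 (adjusted p = 0.104, edgeR) and Prickle2 (0.062) did not pass. Nor did Wnt4 (0.061), Dchs1 (0.128) and Kif26b (0.118), and 2418 genes passed in all.

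Of all genes, 2071 passed. The count was 3531 with the DESeq2 Wald test, 3178 with the header identifier as a term, 983 at a threshold of 0.01 and 1169 (without epithelium replicate 3) to 2573 when a library was left out, with 1323 without muscle replicate 1. The count of other pathway genes higher in muscle was 3 with library size only, 12 with the DESeq2 Wald test, 10 with the covariate for background counts, 1 at a threshold of 0.01 and 2 to 12 when a library was left out. The count higher in epithelium was 8 in the 4 libraries numbered 1 and 3, 2 at a threshold of 0.01 and 2 to 6 when a library was left out. In those 4 libraries the log2 fold change of Ptk7 was 0.013. Without a library it ranged from -0.43 to 0.13 for Ptk7 and from -0.52 to 0.097 for Vangl2, and the Prickle2/Prickle1 difference from -0.013 to 0.28. Fewer samples enter the fits without a library. The cause of the other shifts was not tested.

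Over all tested genes the log2 fold change had a median of -0.10 with TMM, -0.20 with DESeq2 size factors and -0.33 with library size only, and the share of calls higher in muscle was 61.5%, 55.8% and 42.0%. The covariate for background counts put that median at 0.11. With 3 libraries per group, the 4 members that did not pass cannot be called unchanged.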
